A study of Arabidopsis thaliana with 4 samples.

Results

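CCA1, LHY and the REVEILLE genes RVE1 to RVE8 encode a small family of MYB-type transcription factors of the plant circadian clock. Their levels were examined in seedlings of an INO80 mutant. The 10 genes were taken by locus from a table of 23174 genes, with no minimum level, and all 10 had a row. The libraries were made from polyA-selected RNA of whole Arabidopsis thaliana seedlings that had grown on MS agar for 14 days at 22 °C, with 16 h of light in each day and 8 h of darkness. There were 2 libraries of atino80-5, a mutant of the INO80 chromatin remodelling ATPase, and 2 of wild type (WT), with no other treatment. The labels do not describe the lesion of the atino80-5 allele, do not say whether replicates were separate cultures, and give no hour of harvest. The p-values thus rest on differences among these 4 libraries, part of which could be technical.

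In the Arabidopsis clock, CCA1 and LHY peak around dawn and repress genes of the day and evening through a short A/T-rich sequence called the evening element. RVE8, with its close relatives RVE4 and RVE6, binds the same element later in the day and activates many of those genes, helped by the LNK coactivators. The PRR repressors that follow during the day switch CCA1 and LHY off again, which closes a loop. RVE1, RVE2 and RVE7 have the same kind of MYB domain and act mainly on clock outputs such as growth, greening and dormancy.

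The promoters are shown because 6 of the 10 genes carry the same 6-base motif, the G-box CACGTG, in the 250 bases before the annotated start. The sequences are from RefSeq TAIR10.1, each 5′ to 3′ on the strand of its gene. The files name TAIR10 and hold no coordinates, so these positions describe the reference alone. Capitals mark the G-box, with 10 bases on each side.
CCA1, chr2:19245388-19245413, plus strand: gtgtatcagaCACGTGtcgacaaact
LHY, chr1:37936-37961, minus strand: acaatatcacCACGTGtcgatctgcg
RVE1, chr5:5693088-5693113, minus strand: gaaagagcgaCACGTGgcaaagatgg
RVE2, chr5:14753236-14753261, minus strand: agaaatcctcCACGTGtcattagcat
RVE3, chr1:190314-190339, plus strand: gatcgtattcCACGTGgcaatttatg
RVE5, chr4:535136-535161, plus strand: gagaccctaaCACGTGtaaaggaaac

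Among 22127 promoters of protein-coding genes in the table, 7.33% held a G-box in the same window. With the 50 bases after the start included, RVE8 also had a match, which made 7 of 10 members against 8.69% of promoters. CCA1 and LHY share a longer run around it, CACGTGTCGA, which no other member had and which 23 of the 22127 promoters (0.104%) contained. This run was picked after the sequences were seen. The G-box stood in genes that fell, rose or did not pass the test in atino80-5, as given below.

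The promoters of CCA1 and RVE7 are shown whole. Each was the 1 member with a motif named below, a TCP site for CCA1 and an evening element for RVE7. The search also covered the evening element AAAATATCT, the CCA1-binding site AAAAATCT or AACAATCT, and the TCP site GGNCCCAC, on both strands. Capitals mark the matches, none of which overlapped another.
CCA1, chr2:19245341-19245590, plus strand: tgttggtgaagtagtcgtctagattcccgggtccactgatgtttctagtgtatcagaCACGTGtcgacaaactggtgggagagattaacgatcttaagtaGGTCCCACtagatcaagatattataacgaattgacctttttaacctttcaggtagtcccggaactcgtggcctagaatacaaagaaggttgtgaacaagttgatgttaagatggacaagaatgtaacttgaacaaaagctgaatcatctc
RVE7, chr1:6308244-6308493, minus strand: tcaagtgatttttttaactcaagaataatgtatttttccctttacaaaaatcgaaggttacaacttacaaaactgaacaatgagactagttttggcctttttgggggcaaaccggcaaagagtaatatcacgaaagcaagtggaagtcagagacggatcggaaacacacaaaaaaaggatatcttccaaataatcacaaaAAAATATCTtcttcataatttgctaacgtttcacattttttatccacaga

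In the CCA1 promoter the second capital block, GGTCCCAC, is a TCP site, the kind of sequence bound by TCP21 (also called CHE), a repressor of CCA1. It occurred in 1 of 10 members and in 1.27% of all promoters. RVE7 was the 1 member with an evening element, which 2.48% of promoters held. A CCA1-binding site was found before RVE2 and RVE6, against 8.33% of promoters. A match is a run of letters and does not show binding.

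The libraries held 13068214 and 14746250 reads in atino80-5 and 13846046 and 18406709 reads in WT, recovered as whole reads from the deposited FPKM (reads scaled to gene length and library size). Differences were tested with limma on log2(FPKM + 1) for 17642 genes, those whose mean over the libraries reached 1 FPKM, and a gene was called at a Benjamini-Hochberg adjusted p under 0.05. The mutant libraries were less alike than the WT libraries, with a correlation of log2 values across genes of 0.982 in atino80-5 and 0.993 in WT. Replicate 1 of atino80-5 stood further from WT (0.957 and 0.961) than replicate 2 did (0.976 and 0.979). INO80 itself (AT3G57300) had 2.72 and 3.13 FPKM in atino80-5, against 4.28 and 4.54 FPKM in WT, and did not pass (limma adjusted p = 0.117). Leaf markers were abundant in every library, and 0 of 5 were called in limma (0 of 5 had an unadjusted p under 0.05, and 0 of 5 were called by voom or in the authors' deposited table). Of 5 tested root markers, the iron transporter gene IRT1 fell in limma and none rose, while the authors' deposited table also called PYK10 as higher (adjusted p = 0.0196). The 6 root markers, most of whose sum is PYK10, summed to 534.2 and 641 FPKM in atino80-5 and 377 and 428 FPKM in WT. All 6 tested seed markers rose, where 2.99% of all tested genes did. Each had a WT mean of 0.39 FPKM or less, so it reached the minimum level only through atino80-5. That the tested ones rose was thus largely fixed by the filter. The 9 on the list had summed levels of 58.3 and 68.0 FPKM in atino80-5 and 0.900 and 0.799 FPKM in WT, where SESA1 to SESA5 had no read. The 5 flower markers, most of whose sum is SEP3 and PI, summed to 3.98 and 4.95 FPKM in atino80-5 and 1.41 and 1.06 FPKM in WT. SEP3, PI and AG were higher in both mutant libraries and AP1 was lower in both. AP3 had 1 read in atino80-5 and 4 reads in WT. The part of seed, root or flower RNA in the differences below was not tested. In such bulk samples, fewer cells of a type and less RNA per cell cannot be told apart.

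Of the 10 genes, CCA1 fell and RVE1 rose in atino80-5, in the limma test across all genes. LHY, the closest relative of CCA1, was also lower, but lay below the minimum level for that test. The evening-element activators RVE4, RVE6 and RVE8 and the genes RVE2, RVE5 and RVE7 did not pass in any of the fits reported here with all 4 libraries, and RVE3 was nearly without reads in the mutant. Thus 2 of the 7 members tested were called, where 5.41% of all tested genes were (2.99% raised and 2.42% lowered). The median log2 difference was -0.22 over those 7 genes and 0.03 over all tested genes. The libraries of the genotypes did not overlap for 9 of the 10 members, 3 of them higher and 6 lower in atino80-5, but this held for 59.5% of all genes (29.4% higher and 30.1% lower).

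**Figure D1:**
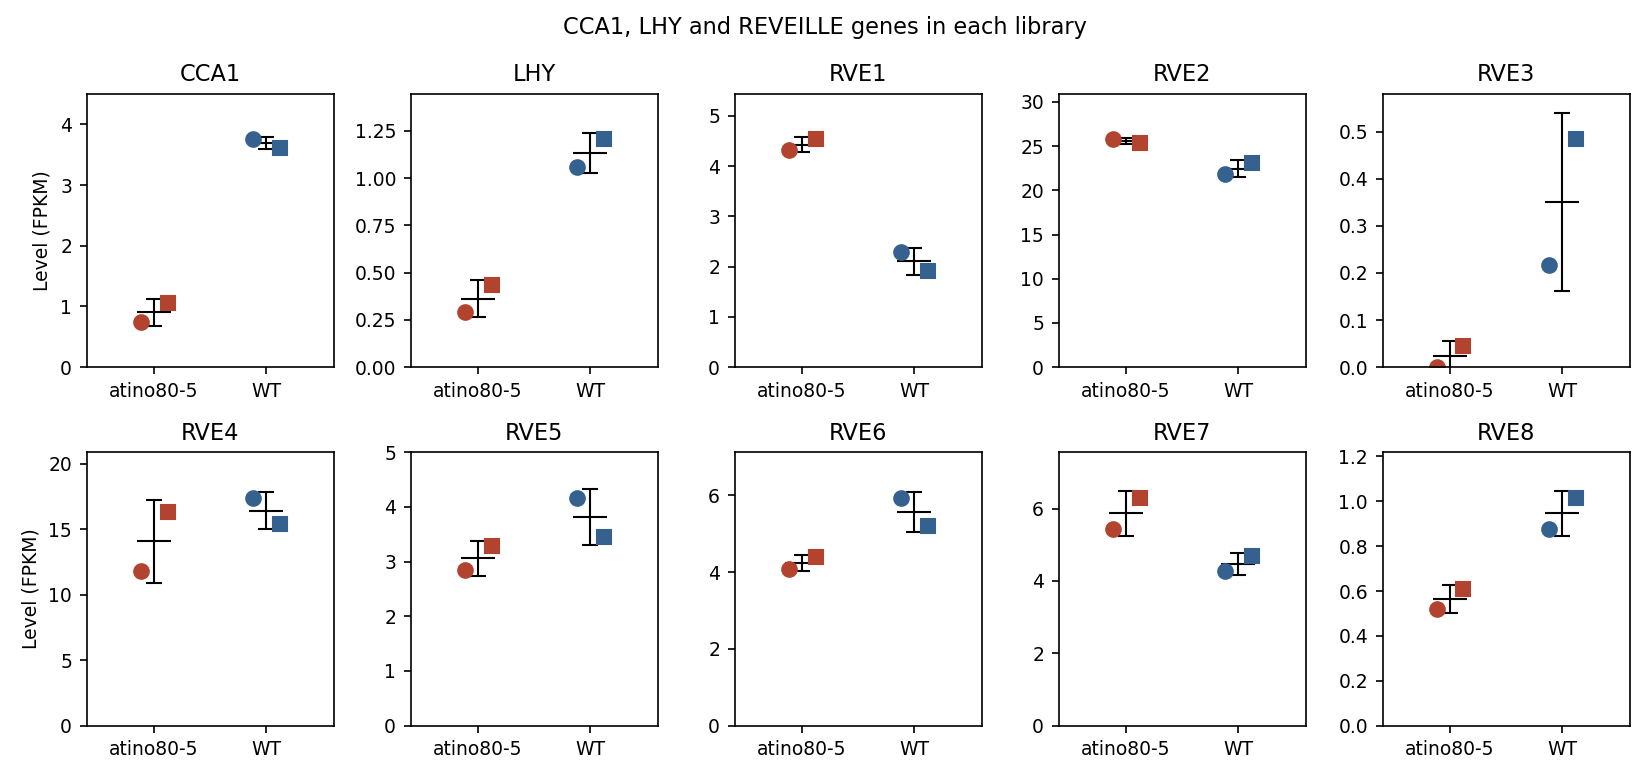
Level of each gene in FPKM (vertical axes from 0, a scale for each panel) in atino80-5 and WT; circles are replicate 1, squares replicate 2, and the black lines show mean and SD (n = 2). CCA1 and LHY sit well below WT in both mutant libraries, RVE1 sits above it, and RVE4 is the 1 gene whose libraries overlap between genotypes.

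CCA1 (AT2G46830, chromosome 2), a dawn-phased repressor, had 0.740 and 1.06 FPKM in the atino80-5 libraries, against 3.76 and 3.62 FPKM in the WT libraries. These values rest on 28 and 49 reads in atino80-5 and on 181 and 235 reads in WT. The WT libraries lay close together, and the higher mutant library was still far below the lower WT library. The mean was 0.901 ± 0.227 FPKM in atino80-5 and 3.69 ± 0.0991 FPKM in WT (SD, n = 2 each), a 4.09-fold fall. On the log2(FPKM + 1) scale the difference was -1.31 (SE 0.16, 95% interval -1.69 to -0.93, limma adjusted p = 0.00987). The authors' deposited table gave CCA1 a log2 fold change of -2.02. The log2 difference was -1.18 without atino80-5 replicate 1 and -1.43 without atino80-5 replicate 2. CCA1 stayed called under every alternative with all 4 libraries in which it could be tested. The limma adjusted p-values ran from 0.000349 (replicate numbers as a block) to 0.0184 (no filter on low values). Fits that left out a library have 1 library in a genotype, so no call of CCA1 is read from them.

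LHY (AT1G01060, chromosome 1), which acts with CCA1 as a partly redundant repressor, had 0.293 and 0.433 FPKM in atino80-5, against 1.06 and 1.21 FPKM in WT. The reads were 15 and 27 in atino80-5 and 69 and 106 in WT. Both mutant libraries were below both WT libraries, as for CCA1. LHY was 3.12-fold lower, with means of 0.363 ± 0.0986 FPKM in atino80-5 and 1.13 ± 0.104 FPKM in WT (SD, n = 2 each). Its mean of 0.748 FPKM over the 4 libraries kept it out of the limma test. With no filter on low values it passed (log2 difference -0.65, limma adjusted p = 0.0424), and with limma voom on the recovered reads it passed too (log2 difference -1.64, SE 0.32, limma adjusted p = 0.0175). The authors' deposited table called it as well, at a log2 fold change of -1.63 and an adjusted p of 0.0114. Without a filter, limma called 0 of 23174 genes once atino80-5 replicate 1, WT replicate 1 or WT replicate 2 was left out (5060, 2188 and 2496 genes had an unadjusted p under 0.05). Those fits therefore say nothing of the call of LHY, whose log2 differences in them were -0.57, -0.70 and -0.60. Without atino80-5 replicate 2, the log2 difference of LHY was -0.72. That fit has 1 mutant library, so no call of LHY is read from it.

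RVE1 (AT5G17300, chromosome 5) is known for promoting hypocotyl growth through auxin synthesis, greening of seedlings and seed dormancy. It had 4.32 and 4.54 FPKM in atino80-5, against 2.29 and 1.92 FPKM in WT, from 135 and 173 reads in atino80-5 and 91 and 103 reads in WT. Both mutant libraries lay above both WT libraries, and replicates were close in each genotype. The mean was 4.43 ± 0.154 FPKM in atino80-5 and 2.1 ± 0.26 FPKM in WT (SD, n = 2 each), a 2.11-fold rise with a log2 difference of 0.81 (SE 0.15, 95% interval 0.45 to 1.16, limma adjusted p = 0.0339). The authors' deposited table also called it, with a log2 fold change of 1.08 and an adjusted p of 0.0123. The log2 difference was 0.84 without atino80-5 replicate 1 and 0.78 without atino80-5 replicate 2. The limma call ended with no filter (adjusted p = 0.0561), with libraries scaled to total reads (0.0507) and without WT replicate 1 or replicate 2 (0.126 and 0.227). A protein-coding gene, AT5G17305, overlaps RVE1 on the other strand, and the strand setting of the counting is not given in the sources used here.

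RVE2 and RVE7 are the relatives of RVE1 in this family, and neither passed. RVE2 (AT5G37260), also called CIR1, had 25.8 and 25.3 FPKM in atino80-5 and 21.8 and 23.1 FPKM in WT, from 526 reads or more in each library. This gap was small in every fit, at a log2 difference of 0.18 (95% interval -0.19 to 0.55, limma adjusted p = 0.464) that turned to -0.01 with quantile normalisation and -0.03 with total-read scaling. RVE7 (AT1G18330), also called EPR1 and first known as a phytochrome-responsive gene, had 5.43 and 6.30 FPKM in atino80-5 and 4.27 and 4.70 FPKM in WT. Its libraries did not overlap, but the log2 difference of 0.32 had a 95% interval of -0.04 to 0.69 (limma adjusted p = 0.22).

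**Figure D2:**
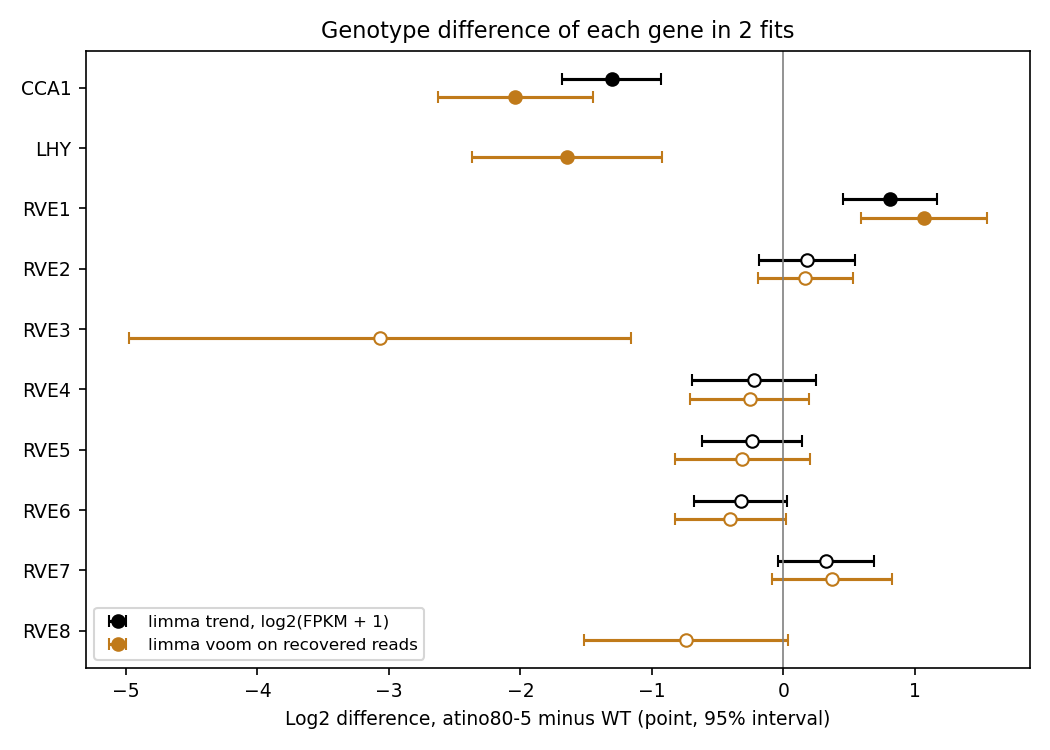
Log2 difference of each gene, atino80-5 minus WT, with its 95% interval, from limma on log2(FPKM + 1) (black, the 7 genes above the minimum level) and from limma voom on recovered reads (orange, all 10 genes); filled points are called at an adjusted p under 0.05. CCA1 and LHY lie to the left of 0 and RVE1 to the right with filled points, and the interval of RVE3 runs from -4.98 to -1.16.

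The activator branch is RVE8 with RVE4 and RVE6 and the less studied RVE3 and RVE5. Each of these 5 genes had a lower mean in atino80-5, a direction whose share over all genes was not counted. Both mutant libraries lay below both WT libraries for 30.1% of all genes. RVE4, RVE5 and RVE6 were tested by limma and did not pass, and RVE3 and RVE8 were below its minimum level. RVE8 (AT3G09600) had 0.520 and 0.609 FPKM in atino80-5 and 0.875 and 1.02 FPKM in WT, from 14 and 20 reads in atino80-5 and 30 and 47 reads in WT. The genotypes did not overlap, but RVE8 was below the minimum level and did not pass in voom (log2 difference -0.74, 95% interval -1.52 to 0.03, limma adjusted p = 0.192). RVE6 (AT5G52660) had 4.08 and 4.39 FPKM in atino80-5 and 5.94 and 5.21 FPKM in WT (log2 difference -0.33, 95% interval -0.68 to 0.03, limma adjusted p = 0.21). RVE4 (AT5G02840), the second most abundant of the 10, had 11.8 and 16.3 FPKM in atino80-5 and 17.4 and 15.4 FPKM in WT, and its genotypes overlapped. For RVE4 the 95% interval of the log2 difference ran from -0.69 to 0.25 (limma adjusted p = 0.481). The log2 difference of RVE4 was -0.44 without atino80-5 replicate 2, the higher of its mutant libraries, and -0.01 without atino80-5 replicate 1.

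RVE5 (AT4G01280) had 2.84 and 3.29 FPKM in atino80-5 and 4.17 and 3.44 FPKM in WT (log2 difference -0.24, limma adjusted p = 0.354). RVE3 (AT1G01520), also known as ASG4, was the least abundant member, with 0 and 1 read in atino80-5 and 5 and 15 reads in WT. After scaling by the size factors, the WT level was 14.8 times that of atino80-5, with an exact 95% counting interval of 2.37 to 615. The interval covers counting error only. RVE3 did not pass in voom (log2 difference -3.07, limma adjusted p = 0.0579) or without a filter (0.121), and the authors' deposited table has no adjusted p for it. RVE3 overlaps AT1G01510 on the same strand and RVE5 overlaps AT4G01290 on the other, so reads of these genes may have been split with their neighbours.

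The family was unevenly expressed, and the order of levels in the deposited FPKM differed between genotypes most for RVE1 and RVE6. In atino80-5 the means in FPKM ran RVE2 25.6, RVE4 14.1, RVE7 5.87, RVE1 4.43, RVE6 4.24, RVE5 3.06, CCA1 0.901, RVE8 0.564, LHY 0.363 and RVE3 0.0227. In WT they ran RVE2 22.5, RVE4 16.4, RVE6 5.57, RVE7 4.48, RVE5 3.81, CCA1 3.69, RVE1 2.1, LHY 1.13, RVE8 0.945 and RVE3 0.351. RVE1 was thus rank 4 in atino80-5 and rank 7 in WT, and RVE6 was rank 5 in atino80-5 and rank 3 in WT. CCA1, LHY, RVE5, RVE7 and RVE8 each moved by 1 rank. In that order the libraries of RVE1 and RVE6 overlapped in atino80-5 and those of RVE5 and CCA1 overlapped in WT, so these neighbours did not differ beyond their spread. The gene length implied by the authors' FPKM was 1.88 times the reference exon length for RVE6, 1.78 times for RVE2 and 0.983 times for RVE8. Per kilobase of reference exon, RVE6 took rank 3 in both genotypes. RVE1 then took rank 5 in atino80-5 and rank 7 in WT, and CCA1 rank 7 in atino80-5 and rank 5 in WT. On that scale RVE7 overlapped RVE1 in atino80-5 and CCA1 in WT, and RVE8 and LHY overlapped in atino80-5.

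Ratios of these genes within a library do not depend on how the libraries were scaled. RVE1 stood at 5.83 and 4.27 times the CCA1 level in atino80-5, against 0.608 and 0.530 times in WT, so the order of the pair was turned round in both mutant libraries. RVE8 stood at 0.702 and 0.573 of CCA1 in atino80-5 and at 0.233 and 0.281 in WT. CCA1 to LHY, the dawn pair, differed less, at 2.52 and 2.45 in atino80-5 and 3.55 and 3.00 in WT. The atino80-5 ratios rest in part on 28 and 49 reads of CCA1, 15 and 27 of LHY, and 14 and 20 of RVE8. Their counting error was not examined. None of these ratios overlapped between genotypes, and with 2 against 2 libraries an exact two-sided permutation test cannot give a p under 0.33. All of them hold CCA1, whose own libraries did not overlap, so they restate in part the differences given above. How often ratios of other genes overlap was not examined.

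**Figure D3:**
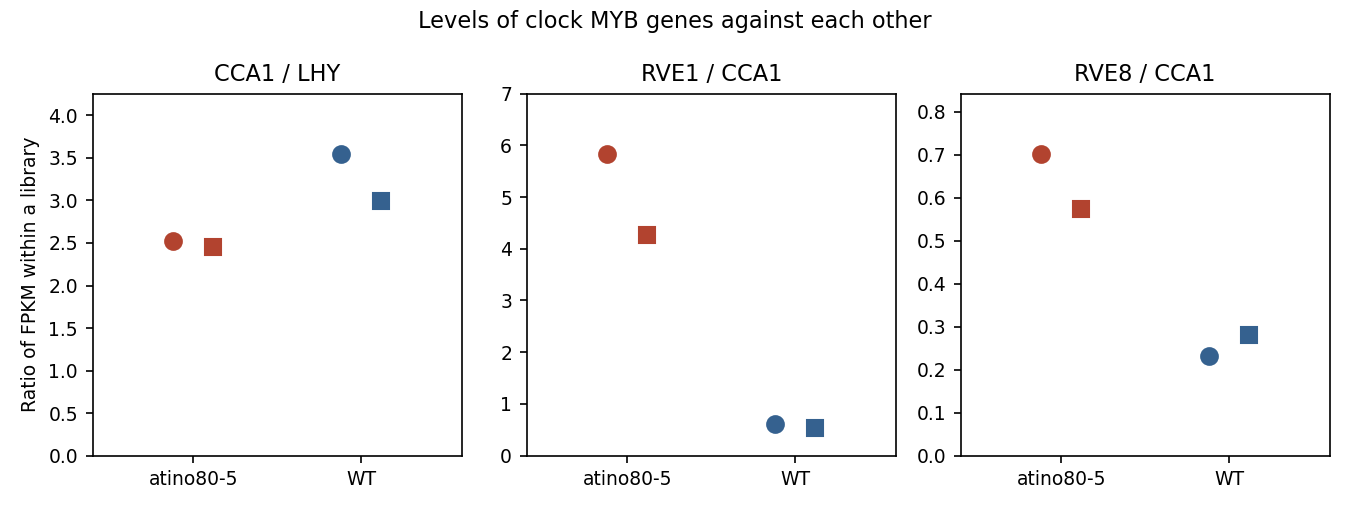
Ratio of FPKM of CCA1 to LHY, RVE1 to CCA1 and RVE8 to CCA1 in each library (vertical axes from 0); circles are replicate 1 and squares replicate 2. RVE1 is above CCA1 in both atino80-5 libraries and below it in both WT libraries.

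The proteins that work with this family were examined from lists of 25 other clock genes, of which 24 were tested. Of these, 1 rose, 3 fell and 20 did not pass, with a median log2 difference of 0.15 against 0.03 over all tested genes, of which 2.99% rose and 2.42% fell. Of 11 partners and upstream regulators, the LNK coactivator genes LNK2 and LNK3 fell and none rose, where 2.42% of all tested genes fell. LNK3 had 0.841 and 0.730 FPKM in atino80-5, against 2.64 and 3.34 FPKM in WT, a 3.81-fold fall (log2 difference -1.16, limma adjusted p = 0.0157). LNK2 had 4.89 and 5.79 FPKM in atino80-5 and 10.5 and 10.7 FPKM in WT (limma adjusted p = 0.0285, but 0.16 and 0.162 without WT replicate 1 or replicate 2). Both mutant libraries lay below both WT libraries for each of these coactivators of RVE8, as they did for 30.1% of all genes. LNK3 rests on 17 and 18 reads in atino80-5 and 68 and 116 reads in WT.

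LNK1, the closest relative of LNK2, had 3.00 and 4.79 FPKM in atino80-5 and 8.21 and 7.74 FPKM in WT. It missed the limma threshold (adjusted p = 0.062) but passed in voom (0.0258), and the authors' deposited table called it (adjusted p = 0.00467). LNK4, named after its values were seen, had 3.37 and 3.80 FPKM in atino80-5 and 3.57 and 3.55 FPKM in WT, with a 95% interval of the log2 difference from -0.34 to 0.35. LNK1 to LNK4 each overlap a neighbouring gene.

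Further regulators of CCA1 and of RVE targets did not pass limma. Of the 11 partners and upstream regulators, 7 had both mutant libraries above both WT libraries, where 29.4% of all genes did. LWD1, which encodes a WD-repeat protein that promotes CCA1 expression, had 70.4 and 37.1 FPKM in atino80-5 and 20.9 and 26.4 FPKM in WT (limma adjusted p = 0.0996, 0.0474 in voom). The cold-regulated repressors COR27 and COR28 stood at 1.54 and 1.77 times their WT means (limma adjusted p = 0.11 and 0.133). The authors' deposited table called LWD1, COR27 and COR28 as higher, with adjusted p-values of 0.00179, 0.0475 and 0.0418. TCP21, the repressor whose site lies in the CCA1 promoter printed above, had 67.4 and 57.4 FPKM in atino80-5 and 37.8 and 42.6 FPKM in WT (limma adjusted p = 0.0991). It is named after its values were seen.

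The PRR genes include the repressors that act on CCA1 and LHY during the day. All 4 PRR genes on the day list were lower in both mutant libraries, as were 30.1% of all genes. Of the 3 tested, 1 was called as lower, against 2.42% of all tested genes. PRR7 fell, with 11.98 and 16.2 FPKM in atino80-5, against 27.5 and 26.5 FPKM in WT (log2 difference -0.91, limma adjusted p = 0.0477). PRR9, below the minimum level, had 8 and 7 reads in atino80-5 and 35 and 45 reads in WT, and passed in voom (log2 difference -1.94, limma adjusted p = 0.0264). PRR5 had 18.5 and 29.5 FPKM in atino80-5 and 40.1 and 39.7 FPKM in WT (limma adjusted p = 0.12). The authors' deposited table called PRR9, PRR7 and PRR5 as lower (adjusted p-values of 0.0471, 0.00125 and 0.0416). The call of PRR7 ended under 5 of 15 alternatives, with limma adjusted p-values of up to 0.24.

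CCA1 and PRR9 lie on chromosome 2 with 10.4 kb between them, and their means were 4.09-fold and 3.91-fold lower in the mutant. RVE4 and PRR7 lie on chromosome 5 with 6.62 kb between them, and of these PRR7 fell while RVE4 did not pass.

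Evening genes include many that CCA1 and LHY repress and RVE8 activates. Of 10 tested, BOA rose, none fell and 9 did not pass, where 2.99% of all tested genes rose. TOC1, the evening PRR gene, had 74.6 and 83.2 FPKM in atino80-5 and 74.3 and 71.6 FPKM in WT (log2 difference 0.11, 95% interval -0.30 to 0.52, limma adjusted p = 0.697), and its difference was negative with quantile normalisation or total-read scaling. GI had 24.1 and 28.6 FPKM in atino80-5 and 24.9 and 27.4 FPKM in WT (95% interval of the log2 difference -0.40 to 0.41, limma adjusted p = 0.984). BOA, a homologue of LUX, rose 2.68-fold, with 17.9 and 10.6 FPKM in atino80-5, against 4.80 and 5.83 FPKM in WT (limma adjusted p = 0.046), and lost its call under 4 of 15 alternatives. BOA overlaps a neighbouring gene. ZTL, an F-box gene for the breakdown of TOC1 protein, had 32.3 and 21.2 FPKM in atino80-5 and 12.4 and 16.2 FPKM in WT (limma adjusted p = 0.102), and the authors' deposited table called it as higher (adjusted p = 0.0107).

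**Figure D4:**
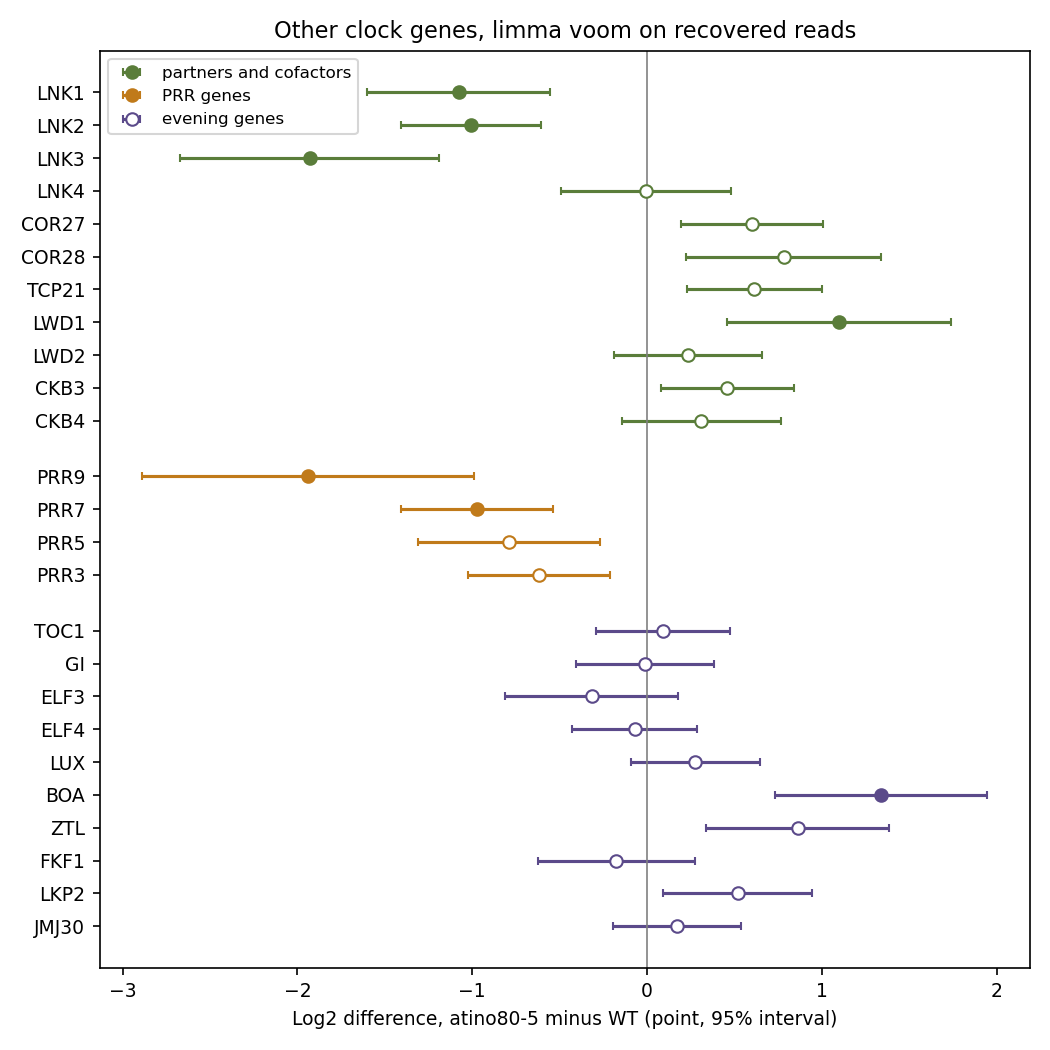
Log2 difference, atino80-5 minus WT, with its 95% interval for the 25 other clock genes, from limma voom on recovered reads; filled points are called at an adjusted p under 0.05. LNK1, LNK2, LNK3, PRR9 and PRR7 lie to the left with filled points and LWD1 and BOA to the right, while TOC1, GI and ELF4 sit near 0.

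Among 10 output genes, PORA fell, none rose and 9 did not pass, where 2.42% of all tested genes fell. PORA, a protochlorophyllide oxidoreductase of greening that RVE1 is known to promote, had 0.630 and 0.295 FPKM in atino80-5, against 2.23 and 2.33 FPKM in WT, a 4.93-fold fall (limma adjusted p = 0.018). The PORA values rest on 14 and 8 reads in atino80-5 and 63 and 89 reads in WT. RVE1 was higher and PORA lower in both mutant libraries, and a link between the 2 was not tested. GRP7 and LHCB1.1, a clock-controlled RNA-binding protein gene and a light-harvesting gene with near-identical copies, did not pass limma (adjusted p = 0.263 and 0.223), and the authors' deposited table called both as higher (adjusted p = 0.0355 and 0.0386).

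The call rate of the family was read against each method's own background. The authors' deposited table called 3 of the 9 members with an adjusted p, CCA1 and LHY as lower and RVE1 as higher, where it called 9.5% of 20478 genes (5.85% raised and 3.65% lowered). Voom called the same 3 genes among all 10 members, where it called 8.4% of 21356 genes (4.22% raised and 4.18% lowered). With no filter, limma called CCA1 and LHY among 10, where it called 3.87% of 23174 genes (1.95% lowered). Since each library holds 1 time point at an hour that is not given, a shift in clock phase and a difference in level cannot be told apart for any of these genes.

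The 5 genes with a symbol whose pattern over the 4 libraries was most like that of CCA1 were CNGC12, ABR1, MPL1, RGLG1 and FRO2. Likeness was the Euclidean distance between log2(FPKM + 1) values after each gene's mean was removed, and ran from 0.0662 for CNGC12 to 0.13 for FRO2. Their own log2 differences lay between -1.35 and -1.25, which must be near that of CCA1 since the genes were chosen on these values. Of the listed clock genes with a reference symbol, PRR7 came closest to CCA1, at a distance of 0.416 and rank 104 of 7932 genes. LNK3, which has no symbol in the reference and so was not in that ranking, lay at 0.35. LHY and PRR9 were below the minimum level and had no distance.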

How the data were processed

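RNA of whole seedlings was sequenced as stranded, polyA-selected libraries, per the labels' protocols. HISAT2 (aligner), featureCounts (counter), the TAIR10 build, and also FastQC, SAMtools, cutadapt, DESeq2 and deepTools appear in the submitters' processing notes, with no version. The authors deposited FPKM values per library, and a table of their own comparison with the mean normalised signal over libraries, log2 fold changes, a test score, p-values and adjusted p-values, per the file headers. Combined, FPKM and mean signal gave whole reads for 100% of 92696 values (tolerance 0.01), and gene lengths with a median ratio of 1.19 to reference exon length.

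Genes averaging 1 FPKM or more were tested by limma 3.58.1 with its trend option (R 4.3.3), fitting genotype alone to log2(FPKM + 1). This scale understates differences of low genes. The code was tested on simulated reads. Voom used genes with at least 10 reads and TMM scaling. Members and lists were chosen with earlier results of these data known. All members are named; genes of the clock and output lists are named if called by limma or in the authors' deposited table, with PRR9, TOC1 and GI added. Names and sequences came from RefSeq TAIR10.1, which matched 23146 of 23174 loci. Protein sequences were not used here. Replicate numbers did not pair libraries (r = -0.0336 between deviations of same-numbered libraries).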

Additional observations from a re-analysis of the deposited data

How the results depend on the processing

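With 528 genes raised and 427 lowered by limma at an adjusted p under 0.05, voom gave 901 and 893, and the replicate block, although the numbers share no more than a label, gave 1115 and 870. A minimum of 5 FPKM left 210 genes called as lowered, and total-read scaling called 484 as raised and 1133 as lowered. Total-read scaling moved the median log2 difference of all tested genes to -0.16, against 0.03 as reported. Leaving out 1 library gave 262 to 3895 raised and 181 to 3001 lowered genes, the highest numbers without atino80-5 replicate 2. Of the family, the 1 raised gene (RVE1) became 0 with no filter, with a minimum of 5 FPKM (which leaves CCA1 and RVE1 untested) and with total-read scaling, and 0 to 1 with a library left out. The 1 lowered gene (CCA1) became 2 (CCA1 and LHY) with no filter and in voom, and 0 with a minimum of 5 FPKM. RVE2 changed sign, to -0.0062 with quantile normalisation and -0.0312 with total-read scaling, and so did TOC1 (-0.18 and -0.11) and GI (-0.18 and -0.21, and -0.0127 in voom). Leaving out a library gave GI -0.112 to 0.124. The cause was not tested. The replicate block left CCA1 and RVE1 as called and added LNK1 as lower and LWD1, COR28 and ZTL as higher (limma adjusted p = 0.0106, 0.0196, 0.0347 and 0.0409). Leaving out a library without a filter, for genes below the minimum level, was chosen after seeing the data, and called genes only without atino80-5 replicate 2. RVE3, RVE8, PRR9 and LHY rest on 21, 111, 95 and 217 reads in all, which limits what can be said of them.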
